A study of Mus musculus with 6 samples.

Results

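The genes described here encode 9 C-type lectin-like receptors that lie on mouse chromosome 6, namely *Clec4d*, *Clec4e*, *Clec4n*, *Clec4a2*, *Clec5a*, *Clec7a*, *Clec12a*, *Olr1* and *Cd69*. They were taken by gene symbol from a table of 38739 genes, with earlier results of these data known, and all 9 were found in it. All 9 also belonged to the 23049 genes with a value above 0 in at least 1 sample, which were the genes tested. RNA was sequenced from peritoneal neutrophils of cGAS knockout mice of the C57B/L6 strain, which are without cGAS, a sensor of DNA in the cytosol. The cells were kept in medium for 2 h with LPS (3 samples) or without it (3 untreated samples), and both groups carried the deletion. LPS, lipopolysaccharide, is a component of Gram-negative bacteria that cells sense through the receptor TLR4. The sample labels give its dose as 500 ng/mL, whereas the methods of the study give a lower dose for the sequenced cells. The neutrophils had been drawn into the peritoneum by an injection of thioglycolate and washed out of it, and no sorting step is described. Whether the 3 samples of a group came from separate mice is not stated, so the p-values measure the spread between these samples.

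C-type lectin-like receptors carry an extracellular domain with the lectin fold, and many of them bind sugars or lipids of microbes and of damaged cells. The activating receptors of myeloid cells signal through an immunoreceptor tyrosine-based activation motif, either in their own tail or in an adaptor such as the Fc receptor γ-chain or DAP12. Src family kinases phosphorylate the motif, the kinase Syk binds it, and the adaptor CARD9 with BCL10 and MALT1 passes the signal on to NF-κB. Inhibitory receptors of the family carry a motif that recruits phosphatases such as SHP-1. Neutrophils bear receptors of both kinds and use them to sense fungi, mycobacteria and dead cells.

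On the GRCm39 assembly, the GENCODE M39 annotation places the genes in 3 parts of chromosome 6. *Clec4a2* (123083387 to 123120958), *Clec4n* (123206802 to 123223980), *Clec4d* (123239070 to 123252230) and *Clec4e* (123258748 to 123266829) lie within 183 kb. *Clec4d* and *Clec4e* are neighbours on opposite strands, with 6517 bases between them. *Cd69* (129244288 to 129252399), *Clec12a* (129319654 to 129342266), *Clec7a* (129438554 to 129449742) and *Olr1* (129462207 to 129484128) lie within 240 kb of each other, 5.98 Mb further along. *Clec5a* (40551234 to 40562773) stands alone, 82.5 Mb before *Clec4a2*. All 9 are annotated as protein-coding.

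RefSeq promoter windows on GRCm38.p6, from 250 bases before to 50 bases after the start, were at hand for 7 of the 9 genes, with the exception of *Clec4n* and *Cd69*. The windows of *Clec4e* and *Clec4d*, which had the largest log2 fold changes of the 4 neighbouring receptor genes, are shown with that of *Clec7a*, which had the smallest of the 9. Capitals mark matches to the C/EBP motif TTNNGNAA on either strand, and overlapping matches form 1 run.
Clec4e, chr6:123289822-123290121, minus strand: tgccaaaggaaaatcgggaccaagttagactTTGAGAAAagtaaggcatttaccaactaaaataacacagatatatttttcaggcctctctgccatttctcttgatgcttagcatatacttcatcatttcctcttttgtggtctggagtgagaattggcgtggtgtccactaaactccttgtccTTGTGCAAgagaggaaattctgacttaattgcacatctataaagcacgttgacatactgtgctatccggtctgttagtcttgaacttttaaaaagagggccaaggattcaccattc
Clec4d, chr6:123261857-123262156, plus strand: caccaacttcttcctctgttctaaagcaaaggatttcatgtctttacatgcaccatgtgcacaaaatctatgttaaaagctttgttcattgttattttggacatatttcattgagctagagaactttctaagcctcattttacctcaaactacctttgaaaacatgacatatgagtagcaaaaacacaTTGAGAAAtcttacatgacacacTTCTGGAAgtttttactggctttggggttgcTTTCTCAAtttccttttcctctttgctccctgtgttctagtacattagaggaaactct
Clec7a, chr6:129472730-129473029, minus strand: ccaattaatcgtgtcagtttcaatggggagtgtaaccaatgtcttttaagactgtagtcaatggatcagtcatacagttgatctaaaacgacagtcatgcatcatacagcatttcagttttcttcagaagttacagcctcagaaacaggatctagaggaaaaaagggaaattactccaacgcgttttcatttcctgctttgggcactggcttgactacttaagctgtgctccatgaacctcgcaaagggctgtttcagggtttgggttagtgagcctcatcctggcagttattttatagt
The C/EBP motif, bound by factors that drive myeloid genes, began at -219 and -66 from the start of *Clec4e* and at -62, -39 and -8 from that of *Clec4d*. It was also found in the windows of *Clec5a*, *Clec4a2* and *Clec12a*, was absent from those of *Olr1* and *Clec7a*, and was present in 40.7% of all 32851 promoter windows of this length. The 10-base NF-κB consensus occurred in 4.5% of all windows and in 0 of the members' windows. AP-1 matches (TGANTCA, in 7.8% of all windows) were found in the windows of *Olr1*, *Clec12a* and *Clec4a2*. PU.1 matches (GAGGAAG, in 13.6%) were found in those of *Clec5a*, *Clec4d* and *Clec12a*. Each motif was searched on both strands, and a match describes these letters alone.

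The deposited values were taken as TPM, the share of a transcript in all transcripts after division by its length. They appear as the mean of a gene's transcripts, with a single scaling factor for each sample, and are here called scaled TPM. This mean makes a level depend on how many transcripts are annotated, so whether one gene was higher than another was not read from these values. Sums over markers and ratios of genes are given to compare samples, and their size carries the same limit. The number of reads per sample is unknown, and no counting error can be given. *Cgas*, the deleted gene, was listed at 0.180 to 0.307 scaled TPM without LPS and at 0.0286 to 0.184 with it, and no wild-type sample was analysed here. Protein-coding genes took 21.6 to 29.0% of the summed value without LPS and 50.6 to 60.0% with it. The 6004 protein-coding genes with a mean of at least 1 had a median log2 fold change of 0.37 as deposited, and of 0.02 once protein-coding genes were scaled to the same sum in every sample. Over all genes tested the median was 0.01. All 12 of the neutrophil markers analysed were above 0, with a summed level of 9617 to 28330 without LPS and of 16018 to 54541 with it. Of these 12 genes 0 were called higher with limma (0 with voom) and 1, *Cxcr2*, lower. Of all genes tested, limma called 1.69% higher and 1.31% lower. The second sample of each group had the highest neutrophil sum of its group and the lowest sum of 6 B cell markers, 281 against 1029 and 1093 when untreated and 262 against 726 and 796 after LPS. *S100a8* and *S100a9* held most of the neutrophil sum, 8405 and 16151 of 28330 in the second untreated sample. *Csf3r*, *Cd177*, *Camp* and *Ltf* were not highest in that sample among the untreated ones, whereas the other neutrophil markers were. The sum of 9 macrophage markers was 169 to 198 without LPS and 272 to 419 with it. Of the 9, 1 was called higher, against 1.69% of all genes tested and 4.91% of the protein-coding genes with a mean of at least 1. In 3 of the 9 every LPS sample lay above every untreated one, against 13.1% and 24.5%. Of these 9, *Cd68* held most of the sum (157 to 179 without LPS and 230 to 381 with it), *C1qb* was the gene called higher, and *C1qa* (1.20 to 20.0), *C1qc* (0.254 to 8.11) and *Msr1* (1.65 to 6.63) were above 0 in every sample. *Icam2* ran from 0.422 to 3.01, *Timd4* from 0.148 to 1.43 and *Mertk* from 0 to 0.191, and 4 more markers of the list (*Adgre1*, *Csf1r*, *Vsig4* and *Gata6*) were not analysed here. Summed markers of the other cell types ran from 1.18 to 7.92 (natural killer cells), from 1.38 to 6.23 (dendritic cells), from 2.02 to 8.52 (eosinophils, with *Epx* at 0 throughout), from 4.69 to 49.1 (mast cells), from 5.64 to 16.8 (T cells) and from 1.67 to 32 (platelets). The part of these other cells in the results was not tested.

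All 9 receptor genes had a positive log2 fold change after LPS as the authors scaled the values, with a median of 1.31. The protein-coding genes with a mean of at least 1 had a median of 0.37, so most of them were positive as well. Of the 9 receptor genes 1, *Clec4e*, passed the limits of the study in the main fit. These were a p under 0.01 with a log2 fold change of more than 2, which the study used with edgeR and limma-voom. Here they were applied to the unadjusted p of limma on the log2(scaled TPM + 1) scale. In this direction 1.69% of all genes tested and 4.91% of the protein-coding genes with a mean of at least 1 passed them. With the p limit alone, *Clec4e*, *Clec12a* and *Clec4a2* passed, 3 of 9 against 4.57% of all genes and 10.1% of those protein-coding genes. In 7 of the 9 genes every LPS sample lay above every untreated sample, against 13.1% of all genes and 24.5% of those protein-coding genes. *Clec5a* and *Clec7a* were the exceptions. In 0 of the 9 did every LPS sample lie below, against 9.75% and 10.1%. Called lower were 0 of the 9 with limma, with 0 at an unadjusted p under 0.05 and 0 with voom, against 1.31% of all genes and 0.75% of those protein-coding genes. A Benjamini-Hochberg adjusted limma p under 0.05 over all genes was reached upwards by 0 of the 9, by 0.894% of all genes and by 2.5% of those protein-coding genes. Downwards it was 0 of the 9 against 0.946% and 0.716%. Of the 9, 6 were higher at an unadjusted p under 0.05, against 10.3% of all genes. With voom, which is made for counts, 4 were called higher (*Clec4d*, *Clec4e*, *Clec12a* and *Cd69*) against 6.73% of all genes, and 7 had an adjusted p under 0.05 against 38.8% of all genes. Voom divides each sample by its summed value, which was 603599 to 713384 without LPS and 404675 to 465904 with it. This division raises the log2 fold changes, and that of *Clec7a* was 0.64 with voom against 0.02 in the main fit. In bulk RNA, more cells of a type and more RNA per cell cannot be told apart.

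**Figure D1:**
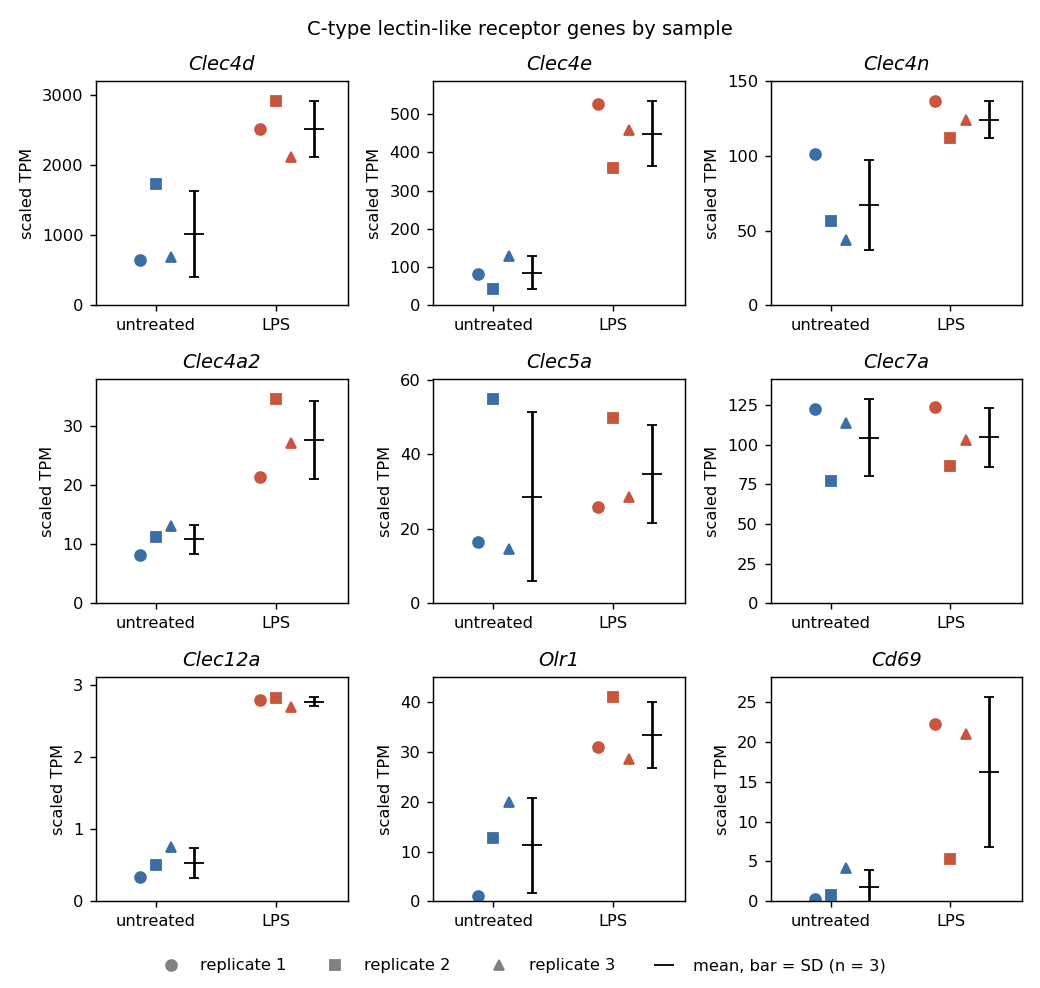
Scaled TPM (linear axis from 0, scale set per gene) of the 9 receptor genes in the 3 untreated (blue) and 3 LPS (red) samples, with circle, square and triangle for replicates 1, 2 and 3 and black bars for mean and SD. The groups overlap for Clec5a and Clec7a, and for no other gene.

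*Clec4e* encodes Mincle, which binds the mycobacterial glycolipid trehalose dimycolate and a nuclear protein released by dead cells, and signals through the Fc receptor γ-chain. Without LPS its values were 81.6, 44.3 and 130 scaled TPM, and with LPS they were 527, 360 and 459. The lowest LPS sample was thus well above the highest untreated sample. The mean rose 5.25 times, from 85.4 ± 43.2 to 449 ± 84.4 (SD, n = 3), and the log2 fold change was 2.49 (standard error of the fit, SE, 0.45, adjusted p = 0.0570 with limma). The call was made in 18 of 19 alternative fits and was lost with protein-coding genes scaled to one sum, where the log2 fold change was 2.00 and the limit on p was missed (adjusted p = 0.133). Over these fits the adjusted p ran from 0.00454 to 0.200. Without the second sample of each group the log2 fold change was 2.24 and the call was kept (adjusted p = 0.0980).

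*Clec4d* encodes MCL, a partner of Mincle in one receptor complex that also binds trehalose dimycolate. The untreated samples had 646, 1732 and 684 scaled TPM, and those with LPS had 2513, 2907 and 2112. The groups did not overlap, although the second untreated sample was far above the other untreated samples. The mean was 1021 ± 616 untreated and 2511 ± 398 after LPS (SD, n = 3), and the log2 fold change of 1.44 (SE 0.46, adjusted p = 0.181) did not pass the limits. In the second sample of each group, where the sum of the neutrophil markers was highest, *Clec4d* was also the highest of its group. Leaving both of these out, the log2 fold change was 1.79 (SE 0.20, adjusted p = 0.0919), still under the limit on its size. With voom, which divides each sample by its summed value and so raises the log2 fold changes, it was 2.07 and the gene was called. The long noncoding RNA gene *Gm68468* overlaps *Clec4d* on the opposite strand, as other annotated genes do at *Clec4a2*, *Clec5a* and *Olr1*, and whether strand was used in the quantification is not given in the sources used here.

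*Clec4n* encodes Dectin-2, a receptor for fungal mannans that also pairs with the Fc receptor γ-chain. Scaled TPM values were 102, 56.7 and 43.6 without LPS and 137, 112 and 124 with it. All LPS samples were higher, the first untreated sample lying closest to them. The log2 fold change of 0.96 (SE 0.38, adjusted p = 0.276) did not pass, and it was 0.48 (adjusted p = 0.595) with protein-coding genes scaled to one sum. In order of log2 fold change, *Clec4e* came before *Clec4d* and *Clec4n* among the activating receptors of the cluster. The log2 ratio of *Clec4e* to *Clec4d* was -3.54 ± 1.52 without LPS and -2.49 ± 0.46 with it (SD, n = 3). The difference between *Clec4e* and *Clec4d* did not exceed the spread of the samples (difference in log2 ratio 1.05, two-sided exact permutation test, p = 0.30, where 0.10 is the smallest p that 3 against 3 samples allow).

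*Clec4a2* encodes DCIR, the inhibitory receptor of the same cluster, whose tail recruits phosphatases. Its untreated values were 8.16, 11.2 and 13.1 scaled TPM, its LPS values 21.5, 34.6 and 27.1, and the groups did not overlap. The log2 fold change was 1.28 (SE 0.33, adjusted p = 0.115), past the limit on p and not on size. Transcripts of *Clec4a2* share stretches of 302 bases with *Clec4a4* and 439 bases with *Clec4b1* at more than 95% identity, so the division of reads among these genes is uncertain. *Clec4a4*, named after its values were seen, was at 0, 1.12 and 0 without LPS and at 2.35, 2.59 and 7.43 with it. For the other 8 receptor genes no such stretch was found. The log2 ratio of *Clec4n* to *Clec4a2*, an activating against an inhibitory receptor, was 2.46 ± 0.93 untreated and 2.15 ± 0.47 after LPS (SD, n = 3). The difference between *Clec4n* and *Clec4a2* of -0.31 in log2 ratio was smaller than the spread, and turned to 0.20 without the first untreated sample (two-sided exact permutation test, p = 0.70).

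*Clec12a* encodes MICL, another inhibitory receptor, which recognises uric acid crystals from dead cells. Its values were low in every sample, 0.341, 0.50 and 0.749 scaled TPM when untreated and 2.78, 2.81 and 2.69 after LPS. The LPS samples were nearly equal and all well above the highest untreated sample. The mean was 0.530 ± 0.206 untreated and 2.76 ± 0.0613 after LPS (SD, n = 3), a ratio of 5.21. Its log2 fold change was 1.31 (SE 0.29, adjusted p = 0.0844), since adding 1 before taking logs shrinks the change of so low a gene. With a pseudocount of 0.1 it was 2.24 (adjusted p = 0.0788) and passed the limits, as it did with voom. With a pseudocount of 0.5 it was 1.68 and with 5 it was 0.49, and neither passed. *Clec12a* was called in 2 of 19 alternative fits.

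*Clec5a* encodes MDL-1, an activating receptor that pairs with the adaptors DAP12 and DAP10. Its 3 untreated samples had 16.4, 54.7 and 14.6 scaled TPM and its LPS samples 25.8, 49.8 and 28.6. The second sample was the highest of both groups, so the groups overlapped. Its log2 fold change was 0.47 (SE 0.58, adjusted p = 0.670), and it was 0.77 (SE 0.18, adjusted p = 0.159) without the second sample of each group. The neutrophil granule genes *Lcn2* and *Ngp* were also highest in the second sample of each group, *Lcn2* at 1284 against 77.0 and 94.7 untreated and at 4887 against 879 and 1190 after LPS. Other granule genes differed: *Camp* was at 24.1, 1.16 and 9.18 untreated and at 12.1, 36.0 and 7.18 after LPS. *Ltf* was at 9.18, 3.25 and 3.04 untreated and at 2.95, 2.27 and 2.81 after LPS. The part of these granule genes in the values of *Clec5a* and *Clec4d* was not tested.

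*Clec7a* encodes Dectin-1, the receptor for fungal β-glucan, which carries an activation motif in its own tail. Values of 122, 76.9 and 114 scaled TPM without LPS and of 124, 86.8 and 103 with it overlapped. Its log2 fold change was 0.02 (SE 0.32, adjusted p = 0.984). It became -0.47 (adjusted p = 0.593) with protein-coding genes scaled to one sum, and 36.1% of the protein-coding genes with a mean of at least 1 had a smaller log2 fold change as deposited. *Clec7a* and *Clec4e* were lowest in the second sample of both groups, whereas *Clec4d* and *Clec5a* were highest in it.

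*Olr1* encodes LOX-1, a scavenger receptor for oxidised low-density lipoprotein and for cell debris. It had 1.12, 12.7 and 20.0 scaled TPM without LPS and 31.0, 41.0 and 28.5 with LPS. All LPS samples were higher, but the untreated samples were spread widely. The log2 fold change of 2.01 was past the size limit and its p was not (SE 0.87, adjusted p = 0.317). As single samples were left out it ran from 1.00, without the first untreated sample, to 2.66, without the third.

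*Cd69* encodes an early activation antigen of leukocytes that holds lymphocytes in tissue. Untreated samples had 0.346, 0.811 and 4.21 scaled TPM and LPS samples 22.2, 5.37 and 21.0. The second LPS sample stood far below the other LPS samples, and not far above the highest untreated sample. The mean was 9.04 times as high after LPS, going from 1.79 ± 2.11 to 16.2 ± 9.38 (SD, n = 3), and the log2 fold change of 2.67 (SE 0.74, adjusted p = 0.135) missed the limit on p. It was called in 6 of 19 alternative fits, among them the fit without the second LPS sample (log2 fold change 3.27, adjusted p = 0.102) and the fit without the third untreated sample (3.24, adjusted p = 0.114). The B cell marker *Cd79a* was at 134, 36.6 and 125 in the LPS samples, lowest where *Cd69* was lowest, but at 457, 27.4 and 187 in the untreated samples, highest where *Cd69* was lowest. The summed level of 6 T cell markers was 12.1, 5.64 and 13.5 with LPS and 16.8, 15.2 and 15.1 without it. The platelet marker *Pf4* was at 30.4, 4.17 and 25.5 with LPS and at 6.32, 0.769 and 7.74 without it. The part of these cells in the values of *Cd69* was not tested.

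**Figure D2:**
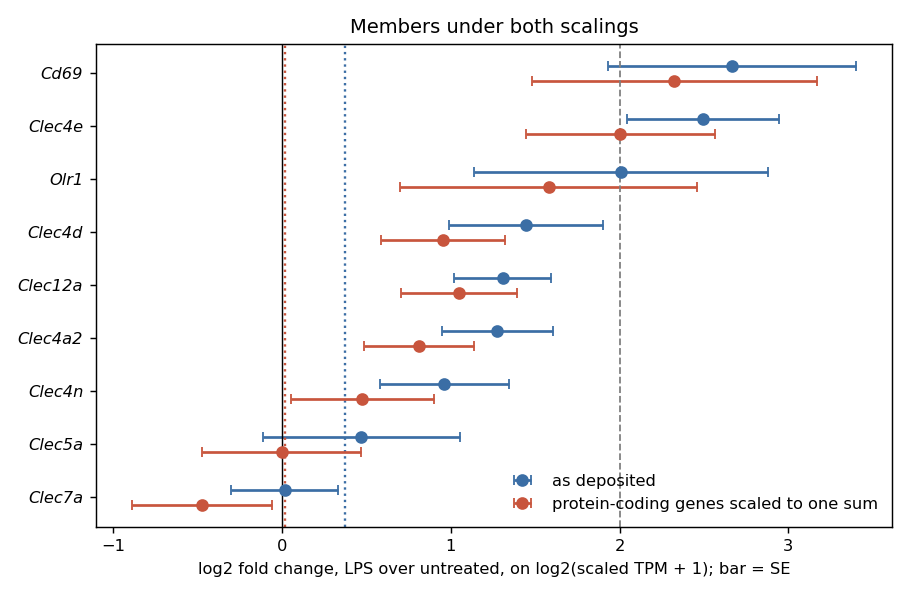
Log2 fold change of the 9 genes, LPS over untreated, with standard error, as deposited (blue) and with protein-coding genes scaled to the same sum in every sample (red). Dotted lines mark the median of the 6004 protein-coding genes with a mean of at least 1 under each scaling, 0.37 and 0.02, and the dashed line the limit of 2. Each gene moves to the left under the second scaling, Clec4e from 2.49 to 2.00, and Clec5a and Clec7a end at -0.00 and -0.47.

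With protein-coding genes scaled to one sum, 7 of the 9 genes kept a positive log2 fold change, *Cd69* at 2.32 (adjusted p = 0.215), *Clec4e* at 2.00 and *Olr1* at 1.58 (adjusted p = 0.402). *Clec5a* and *Clec7a* turned negative, and 0 of the 9 were called higher with limma in that fit, against 1.21% of the genes tested in it. There *Clec4d* and *Clec12a* had a log2 fold change of 0.95 and 1.05. As deposited, 97.7% of the protein-coding genes with a mean of at least 1 had a smaller log2 fold change than *Cd69*, 97.0% than *Clec4e*, 93.3% than *Olr1* and 85.2% than *Clec4d*.

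Around *Clec4e*, 14 genes with a mean of at least 1 lay within 0.5 Mb, and 5 of them had a log2 fold change over 1. These were *Clec4e*, *Clec4d* and *Clec4a2*, and the relatives *Clec4a1* and *Clec4a4*. For scale, 72.3% of the protein-coding genes with a mean of at least 1 had a smaller log2 fold change than *Clec4n* (0.96). For *Clec4a2* (1.28) the share was 81.3%. The 10 genes of this window that are not among the receptors described had a median log2 fold change of 0.68. Among these 10 were a long noncoding RNA gene, pseudogenes and relatives of the receptors. The median was 0.37 for those protein-coding genes and 0.01 over all genes tested. Of a list of 46 other C-type lectin genes of chromosome 6, with the natural killer cell receptors of the Klr group among them, 42 were tested and 13 had a mean of at least 1. The median log2 fold change of the 42 was -0.01, and of the 13 it was 0.43. *Clec4a1*, a DCIR relative without the inhibitory motif of DCIR, was the 1 gene of the 42 called higher, against 1.69% of all genes tested. It rose from 6.66, 15.7 and 20.4 to 53.0, 70.7 and 55.5 scaled TPM, which is 2.11 on the log2 scale (SE 0.45, adjusted p = 0.0793), and it was not called once the first untreated sample or any one of the LPS samples was left out. Called lower were 0 genes of this list with limma (0 at an unadjusted p under 0.05 and 0 with voom). *Clec2d* (log2 fold change 1.17), *Clec4a3* (0.67) and *Klra2* (0.43) missed the limits, with adjusted p-values from 0.377 to 0.616.

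**Figure D3:**
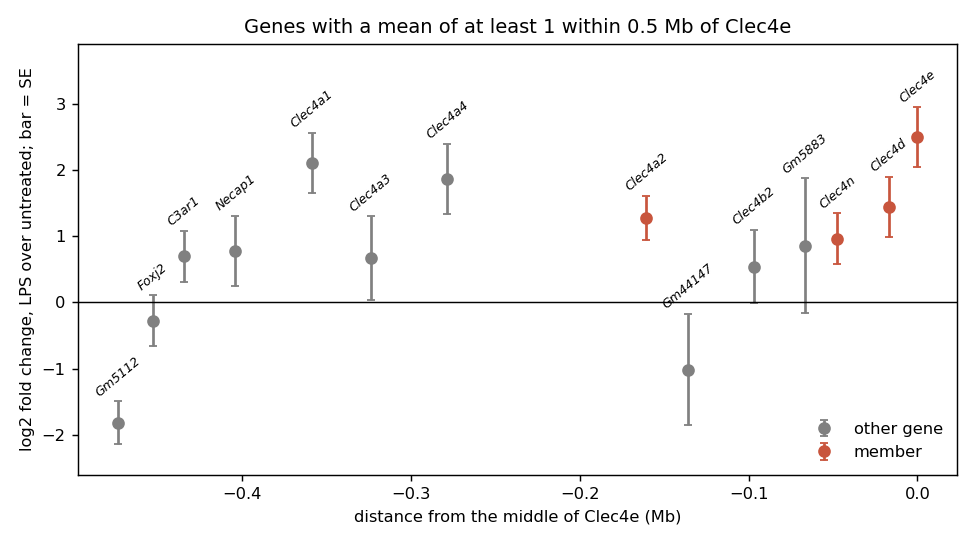
Log2 fold change, LPS over untreated, with standard error for the 14 genes with a mean of at least 1 within 0.5 Mb of the middle of Clec4e, by distance in Mb. The receptor genes described (red) lie between 0.96 and 2.49, Clec4a1 at 2.11 and Clec4a4 at 1.86, while the other points are under 1 and 3 of them under 0.

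C-type lectin genes of other chromosomes were listed for comparison. Of 44 genes listed, 30 were tested, with a median log2 fold change of -0.00, and 7 had a mean of at least 1, with a median of -0.62. Of the 30, 1 was called higher and 1 lower, against 1.69% and 1.31% of all genes tested. *Ly75*, which encodes the endocytic receptor DEC-205, was called higher, from 3.64, 2.91 and 0.387 to 16.2, 21.8 and 18.5 scaled TPM (log2 fold change 2.75, SE 0.52, adjusted p = 0.0617), and not called without the second or the third LPS sample. *Cd93*, a receptor of myeloid and endothelial cells, was called lower, from 33.8, 36.9 and 41.4 to 4.95, 11.6 and 3.83 (log2 fold change -2.42, SE 0.43, adjusted p = 0.0540).

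The signalling partners of these receptors moved in both directions. Of 37 genes listed, 30 were tested, of which 5 were called higher and 1 lower. Of all genes tested, 1.69% were called higher and 1.31% lower. Of the protein-coding genes with a mean of at least 1 it was 4.91% and 0.75%. The median log2 fold change of the 30 was 0.62. The largest change in either direction among the called genes was in *Card9*, the adaptor that links Syk to NF-κB (chromosome 2, 26242188 to 26250930, minus strand). It fell from 19.5, 37.3 and 35.0 scaled TPM to 1.74, 3.74 and 1.73, and each LPS sample was far below each untreated one. The log2 fold change was -3.21 (SE 0.41, adjusted p = 0.0262 with limma), and *Card9* was called lower in 19 of 19 alternative fits, with an adjusted p from 0.00465 to 0.135. The long noncoding RNA gene *Gm13562* overlaps *Card9* on the opposite strand.

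Among the adaptors, *Hcst*, the gene of DAP10, rose from 0.890, 2.52 and 3.02 to 10.9, 22.8 and 16.3 scaled TPM (log2 fold change 2.50, SE 0.44, adjusted p = 0.0536). *Fcer1g*, the Fc receptor γ-chain on which Mincle, MCL and Dectin-2 depend, had a log2 fold change of 0.51 (adjusted p = 0.523), and *Tyrobp*, the gene of DAP12, had 0.17 (adjusted p = 0.892). For both of these adaptors the groups overlapped. Of the kinases, *Map3k7*, the gene of the kinase TAK1, rose from 0.838 ± 0.514 to 7.51 ± 0.0529 (SD, n = 3, log2 fold change 2.25, adjusted p = 0.0395). *Syk* itself was at 43.9, 32.2 and 52.8 untreated and 57.8, 107 and 66.2 after LPS, with a difference of 0.80 on the log2 scale (adjusted p = 0.328). *Bcl10* had a log2 fold change of 1.24 (adjusted p = 0.199), and *Ptpn11*, the gene of the phosphatase SHP-2, had 1.53 (adjusted p = 0.307). The NF-κB subunit genes *Nfkb1* (log2 fold change 2.50, adjusted p = 0.0217) and *Rel* (2.17, adjusted p = 0.0738) were called higher. *Cebpb*, which encodes a C/EBP factor, had values of 600, 941 and 512 untreated and of 1423, 3142 and 1723 with LPS. Its log2 fold change of 1.58 (adjusted p = 0.128) and that of *Relb* (adjusted p = 0.288) did not pass the size limit. Without the first untreated sample 3 partners rather than 5 were called higher.

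**Figure D4:**
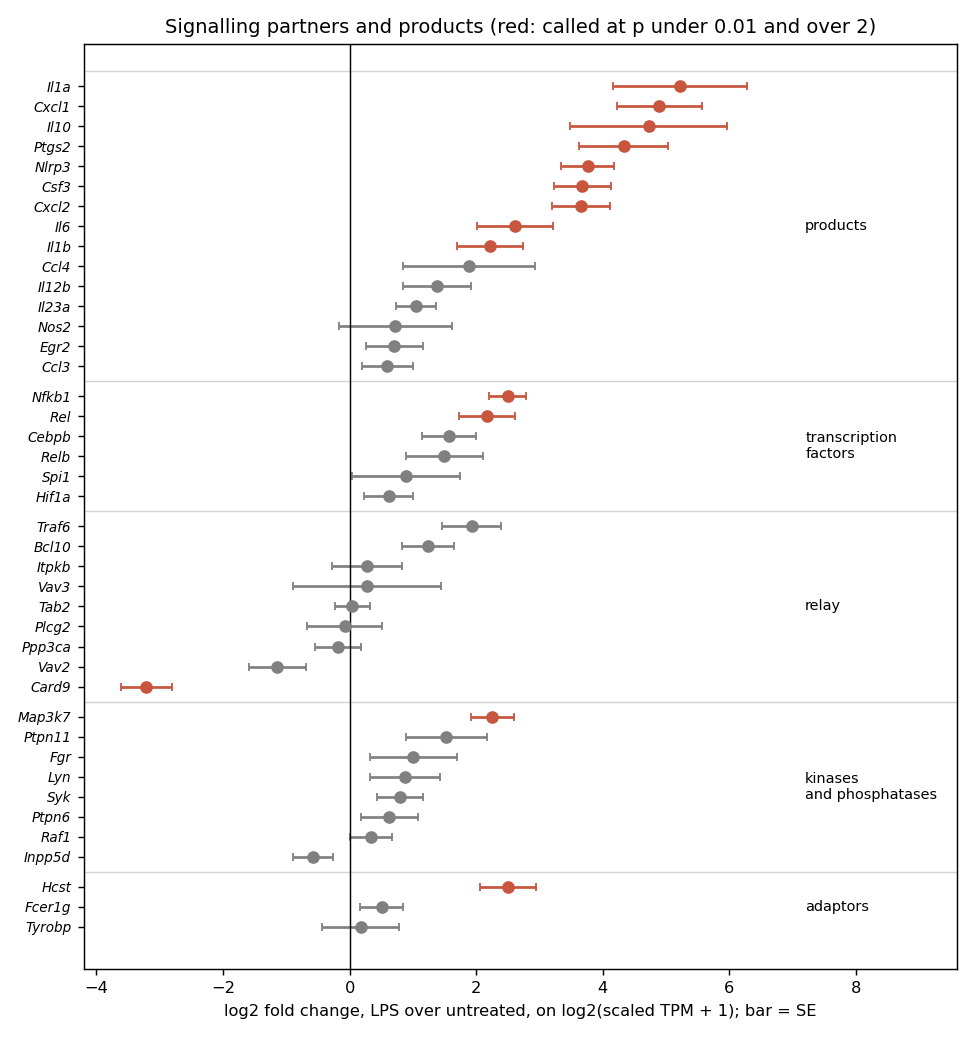
Log2 fold change, LPS over untreated, with standard error for the partners and products with a mean of at least 1, other than 1 partner that is not reported, in blocks by role and with the called genes in red. Card9 is the called gene on the left, at -3.21, and 9 products lie to the right, from 2.22 to 5.23.

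Genes whose products follow activation of these receptors, and also of the LPS receptor TLR4, were mostly higher. Of 19 listed, 16 were tested, and all 16 had a positive log2 fold change with a median of 2.42. The protein-coding genes with a mean of at least 1 had a median of 0.37, so most of those were positive too. Of the 16, 9 were called higher, against 1.69% of all genes and 4.91% of the protein-coding genes with a mean of at least 1. The called genes were *Il1a* (5.23), *Cxcl1* (4.90), *Il10* (4.72), *Ptgs2* (4.33), *Nlrp3* (3.76), *Csf3* (3.68), *Cxcl2* (3.66), *Il6* (2.61) and *Il1b* (2.22), with the log2 fold change of each in parentheses. An adjusted limma p under 0.05 was reached by 5 of the 16, against 0.894% of all genes. It was not reached by *Il1a* (0.0715), *Il6* (0.0901), *Il1b* (0.0973) and *Il10* (0.119). Of 19 alternative fits, *Il10* was called in 9, *Il6* and *Il1b* in 12, *Il1a* in 15 and those 5 in all 19. *Ccl4* (1.88) and *Ccl3* (0.60) were not called, with an adjusted p of 0.417 and 0.518. Called lower were 0 products with limma (0 at an unadjusted p under 0.05, 0 with voom). Without the third untreated or the third LPS sample 5 were called higher. These lists overlap with general responses to LPS, and nothing in the design separates a signal of the lectin receptors from one of TLR4.

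The genes most like *Clec4e* over the 6 samples, among 3019 named genes with a mean of at least 5, were *C1qb* (Pearson r = 0.997), *Ssr1* (0.996) and *Tgoln1* (0.994). *C1qb*, a subunit of complement C1q, is the macrophage marker that was called higher, and it went from 2.85, 0.712 and 4.75 to 23.9, 17.3 and 18.0 scaled TPM. Those most like *Clec4d* were *Gclm* (0.996), *Antxr2* (0.995) and *Atp6v1d* (0.993), which shared its high second untreated sample: *Gclm*, a subunit of the enzyme that makes glutathione precursors, was at 45.9, 166 and 59.8 and then at 293, 373 and 243. These correlations run over samples that fall into the treated and untreated groups and share their libraries, and are given as a description.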

How the data were processed

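Peritoneal neutrophils of cGAS knockout mice were profiled by RNA sequencing, 3 untreated and 3 LPS samples, grouped by the sample titles. Per the methods of the paper, the authors used STAR for alignment to GRCm39, then Kallisto for quantification and edgeR for normalization. The processing notes of the submitters also name fastp and mm10, and tool versions and the annotation release are not given in the sources used here. The deposited values, named as normalized counts, were taken as TPM: in the third untreated sample 97.7% of 1459 genes with 1 transcript had at most 6 digits, as Kallisto writes TPM. Of 1033 values there that did not end within 6 decimals, 84.7% did so after multiplication by a whole number up to 30 (tolerance 1e-10), as averages over transcripts would. TPM is a share of a fixed total and keeps no depth, so when some genes take more of it the others take less.

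Genes above 0 in at least 1 sample were tested on log2(value + 1) with limma 3.58.1 in R 4.3.3 (lmFit, eBayes with a trend, two-sided), without covariates, and Benjamini-Hochberg adjustment over all 23049. The methods of the paper name limma-voom, which needs counts, so voom served as an alternative. Calls used the limits of the paper. GENCODE M39 entries were found for 35599 genes by name and for 983 by identifier. Near-identical stretches (95% over 150 bases) were sought with blastn 2.17.0. Other steps ran in Python 3.11.15 (pandas 2.3.3, scipy 1.17.1, matplotlib 3.10.9), and the fit was tested on simulated data. Protein sequences were not used here. Of the genes of the lists, 3 are not reported by name here, and they stay in the counts and medians of their lists.

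The members and the gene lists were chosen with earlier results of these data known. Named were all members, the called genes of each list, up to 4 more of each list with the largest change and a mean of at least 5, and the 3 genes most like *Clec4e* and *Clec4d*. Markers, *Fcer1g*, *Tyrobp*, *Syk*, *Clec4a4*, *Lcn2*, *Ngp* and *Gm13562* were named after their values were seen. Alternatives were pseudocounts of 0.1, 0.5 and 5, a mean of at least 1, genes at 0 kept, quantile normalization, median centring, protein-coding genes scaled to one sum, no trend, voom, a replicate block and each sample left out. Chosen after seeing the data were the block together with protein-coding scaling, and leaving out the second sample of both groups.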

Additional observations from a re-analysis of the deposited data

How the results depend on the processing

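The direction of *Clec4d*, *Clec4e*, *Clec4n*, *Clec4a2*, *Clec12a*, *Olr1* and *Cd69* was positive in 19 of 19 alternative fits. Every LPS sample of these 7 genes lay above every untreated one, so only fits that rescale the samples could have turned the sign. Those fits were quantile normalization, median centring, protein-coding scaling (with and without the block) and voom. *Clec5a* turned to -0.0021 with protein-coding genes scaled to one sum, with and without the replicate block. *Clec7a* turned to -0.47 in the same fits, to -0.061 with median centring, to -0.062 without the second sample of both groups, and to as low as -0.19 as samples were left out, with a highest value of 0.14. The number of receptor genes called higher, 1 in the main fit, was 2 with a pseudocount of 0.1, with genes with a mean of at least 1, with median centring and with the replicate block, 4 with voom, 0 with protein-coding genes scaled to one sum, 0 at an adjusted p under 0.05 and 1 to 2 as samples were left out. Over all genes, 389 were called higher in the main fit, 856 with a pseudocount of 0.1, 129 with 5, 154 with protein-coding genes scaled to one sum and 1552 with voom, while 301 were called lower in the main fit, 493, 168, 127 and 177. For the other lists, the counts below are those that moved by more than 1.5 times, and their causes were not tested. Other chromosome 6 lectin genes called higher (1 in the main fit) were 2 with a pseudocount of 0.1 and with voom, 0 with a pseudocount of 5, with protein-coding scaling (with the block as well) and at an adjusted p under 0.05, and 0 to 2 as samples were left out, where 0 to 1 were called lower. Lectin genes of other chromosomes called higher (1) were 0 with a pseudocount of 5 and at an adjusted p under 0.05, and 0 to 1 as samples were left out. Those called lower (1) were 0 with a pseudocount of 5, with voom and at an adjusted p under 0.05, and 2 with protein-coding scaling, with and without the block. Partners called higher (5) were 2 with a pseudocount of 5 and at an adjusted p under 0.05, 3 with protein-coding scaling, with and without the block, 9 with voom, and 3 to 7 as samples were left out, the 3 without the first untreated sample. Products called higher (9) were 5 at an adjusted p under 0.05 and 5 to 7 as single samples were left out, the 5 without the third untreated or the third LPS sample. The log2 ratio of *Clec4n* to *Clec4a2* ran from -0.72 to 0.20 as samples were left out, 0.20 without the first untreated sample, and that of *Clec4e* to *Clec4d* from 0.19 to 1.63, 0.19 without the second untreated sample.

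The sample titles give replicate numbers and do not state what equally numbered samples share. The deviations of equally numbered samples from their group means correlated at 0.102, 0.220 and 0.0925 over 9403 genes. Each sample correlated best with its own number, and whether equal numbers share a mouse or a batch was not tested. With the replicate block 387 genes were called higher and 303 lower, and 1 higher and 15 lower passed an adjusted p under 0.05, against 206 and 218 without it. Of the receptor genes *Cd69* was then called beside *Clec4e*. The log2 ratios of *Clec4e* to *Clec4d* (1.05) and *Clec4n* to *Clec4a2* (-0.31) had the same difference within pairs, which follows from arithmetic and tests nothing. No group has 4 samples, so no single sample was tested as standing apart. TPM without read numbers gives no lowest detectable level, which bears on genes with low values such as *Clec12a*, *Cd69* and *Olr1*.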
